A study of Mus musculus with 10 samples.

Results

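The collagen genes of the mouse oviduct were followed with and without the progesterone receptor, PGR. Members were all genes whose symbol in the platform's annotation is Col, a type number, a and a chain number, and 44 such genes were among 19938 genes tested. They were grouped by their type number, without use of the measured values, into 11 fibrillar, 8 basement membrane, 9 fibril-associated and 16 other collagens. Of the 44, 42 had 1 probe set on the array, while Col6a5 and Col6a6 had 2 each and the one with the higher mean signal was used. No member was removed for low signal.

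The PRKO mice were homozygous for a lacZ insertion into the Pgr gene that disrupts both receptor isoforms, in every cell that would use the gene. Their controls, PR+/-, carried the same insertion on 1 allele. Prepubertal animals aged 21 to 23 days were given eCG, a gonadotropin that makes follicles grow (5 IU), and after a further 44 to 47 h the ovulatory hormone hCG (5 IU). Each array held a pool of whole oviducts from 3 animals at 8 h past hCG, so that both genotypes had 15 animals on 5 arrays. The comparison asks which oviduct transcripts differ when the receptor is missing at this time. No array was taken before hCG.

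Collagens are secreted proteins built of 3 chains wound into a triple helix. Fibrillar collagens pack into the rope-like fibrils that give tissue its tensile strength, and fibril-associated collagens sit on those fibrils and link them to other matrix. Type IV collagen forms the sheet-like network of basement membranes, which underlie epithelium and surround each smooth muscle cell. In the oviduct these matrices hold the folded mucosa, the connective tissue beneath it and the muscle layer that moves eggs and embryos.

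In PRKO oviducts 5 of the 6 type IV chain genes fell, by 1.33-fold to 1.84-fold. The deepest falls were single members of other classes, Col12a1 at 2.40-fold and Col11a1 at 2.33-fold. Col25a1, a membrane-spanning collagen, rose 1.49-fold and was the only collagen that rose. In all, 9 of 44 collagens fell, 1 rose and 34 were not called, where a call is a limma adjusted p under 0.05 (Benjamini-Hochberg, over all genes tested). Over all genes tested, 4.96% were called, 3.87% having fallen and 1.09% risen. At an unadjusted p under 0.05, 13 collagens were lower and 4 higher, against 11.1% and 10.1% of all genes. Since these are whole-organ RNA pools, fewer cells of a type and less RNA per cell cannot be told apart.

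**Figure D1:**
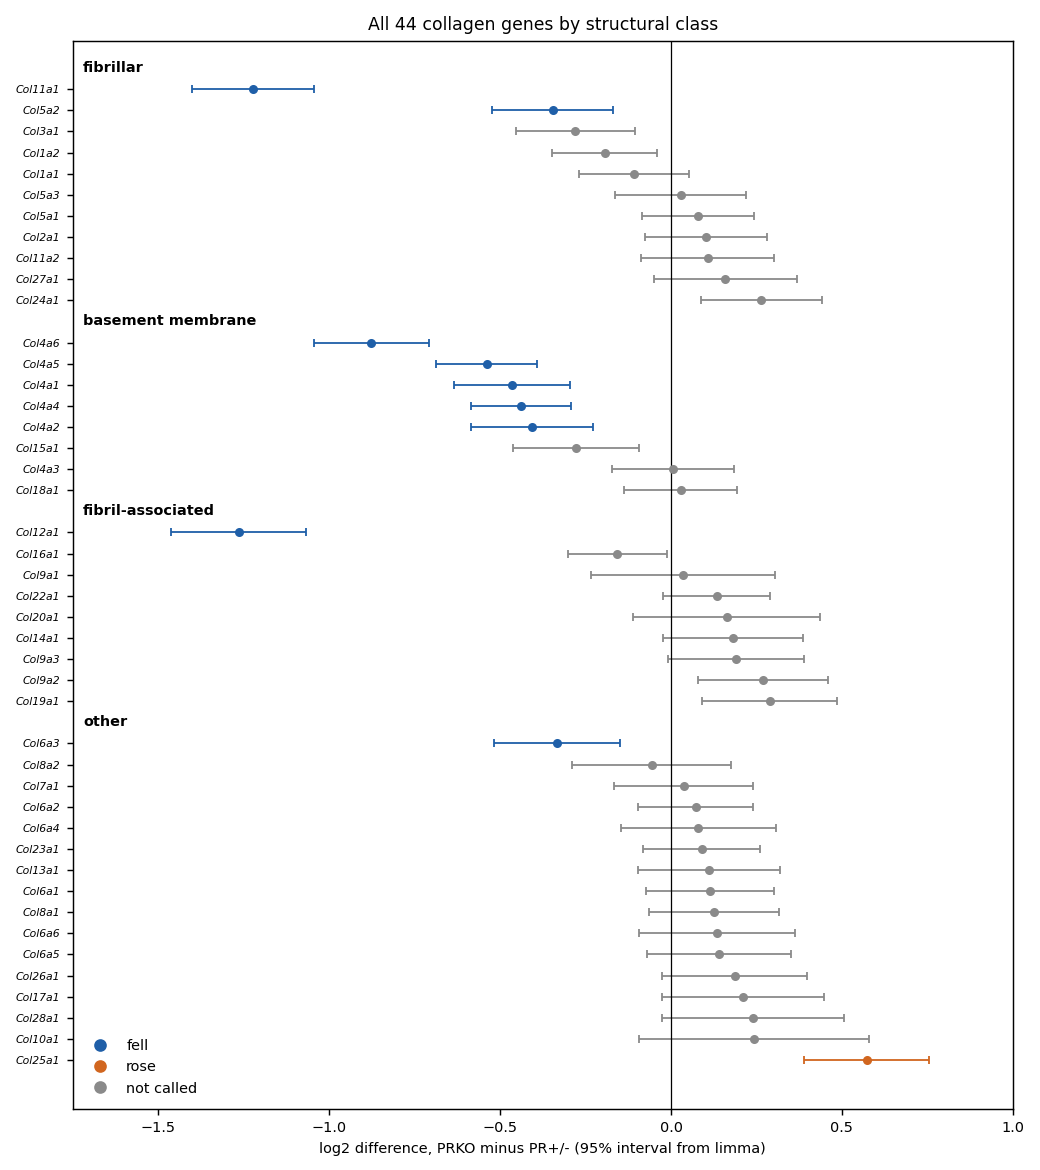
Log2 difference between genotypes (PRKO minus PR+/-, horizontal axis) for each of the 44 collagen genes in 4 structural classes, with points for the estimate, bars for its 95% interval from limma (5 against 5 arrays), and colour for the call. The 5 called type IV genes, Col12a1 and Col11a1 lie left of 0, Col25a1 lies right of it, and most other intervals span 0.

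The label check and the arrays are given first. The log2 signal of Pgr was 7.42 ± 0.11 in PR+/- arrays and 6.36 ± 0.037 in PRKO arrays (SD, n = 5 per genotype), and all PRKO arrays lay below all PR+/- arrays (exact two-sided permutation p = 0.00794, a floor set by the 252 ways of arranging the arrays). How widely signals are spread within an array, measured as the interquartile range over its rows, ran from 3.37 to 3.48 in PR+/- and from 3.13 to 3.42 in PRKO. Cyp11a1, a steroidogenic gene of the ovary, lay between 3.05 and 4.68 on 8 arrays, but at 7.04 on the fourth PR+/- and 7.10 on the third PRKO array. Oviduct identity was checked by the ciliated cell factor Foxj1, at 7.16 ± 0.11 in PR+/- and 7.05 ± 0.18 in PRKO, and the secretory cell factor Pax8, at 8.51 ± 0.052 and 8.50 ± 0.20 (SD, n = 5 each). As a reference for transcripts an oviduct should lack, 1027 olfactory receptor genes had a median log2 signal of 2.72 and a 95th percentile of 4.15. The mean of 1 collagen, Col19a1 at 4.01, lay under that percentile. Signals of different probe sets are not comparable as amounts.

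Markers of the cell types that the sample could hold were read on the same arrays. All 10 smooth muscle markers fell (Myh11, Acta2, Actg2, Des, Cnn1, Tagln, Smtn, Lmod1, Myocd and Synpo2). Their summed signal on a linear scale was 9905 to 11008 in PR+/- and 5524 to 7026 in PRKO. Such sums follow the brightest probe sets, here Acta2, and are not amounts of cells. Of 8 pericyte markers, 4 fell (summed signal 1249 to 1493 against 803.1 to 929.2). Of 10 fibroblast markers, 1 fell (5937 to 6707 against 5069 to 5581), and of 10 endothelial markers, 2 fell (747.7 to 802.1 against 645.0 to 761.1). At an unadjusted limma p under 0.05, 5 pericyte, 6 fibroblast, 3 endothelial and 4 mesothelial markers were lower, and 0, 1, 0 and 0 higher. Of all genes tested, 11.1% were lower and 10.1% higher at that p, and 3.87% were called as fallen. No smooth muscle or endothelial marker lay at or under the olfactory 95th percentile, while Higd1b of the pericyte list and Pi16 of the fibroblast list did. So did S100a8 of the leukocyte list, Cdh19 of the nerve sheath list and 5 of 10 ovarian markers (Cyp17a1, Inhba, Fshr, Amh and Zp3). Among epithelial markers 1 of 9 secretory genes fell and 1 of 9 ciliated genes rose. In the mesothelial list 2 of 8 fell, and 0 of 9 leukocyte, 0 of 10 ovarian and 0 of 4 nerve sheath markers were called by limma, with 2, 1 and 2 of these higher and 0 lower at an unadjusted p under 0.05. The part of these cell types in the collagen differences was not tested.

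Type IV collagen has 6 chain genes arranged as 3 head-to-head pairs, Col4a1 with Col4a2, Col4a3 with Col4a4, and Col4a5 with Col4a6. Their chains assemble into a ubiquitous network of alpha 1 and alpha 2, a network of alpha 3, alpha 4 and alpha 5 best known from kidney and lung, and a network of alpha 5 and alpha 6 that is found around smooth muscle and under some epithelia. In these oviducts the alpha 6 chain gene changed most and the alpha 3 chain gene was not called.

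Col4a6, which codes for the alpha 6 chain, read 6.74, 6.54, 6.68, 6.45 and 6.74 on PR+/- arrays 1 to 5 and 5.78, 5.64, 5.71, 5.81 and 5.81 on PRKO arrays 1 to 5 (log2 signal). The groups were far apart, with the highest PRKO array 0.63 below the lowest PR+/- array. The log2 difference was -0.88 ± 0.079 (SE, n = 5 against 5, limma adjusted p = 1.11e-05), a 1.84-fold lower signal. Col4a5, the alpha 5 chain gene, read 6.57, 6.54, 6.65, 6.57 and 6.64 in PR+/- and 6.05, 5.92, 6.11, 6.14 and 6.05 in PRKO. The PR+/- values were tight and no PRKO array reached them. Col4a5 fell by 0.54 ± 0.069 on the log2 scale (limma adjusted p = 2.98e-04, 1.45-fold lower).

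Both genes of this X-linked pair fell, but the log2 differences of their signals were not equal. The log2 ratio of Col4a5 to Col4a6 within an array was -0.04 ± 0.11 in PR+/- and 0.30 ± 0.065 in PRKO arrays (SD over 5 arrays per genotype). That shift of 0.34 between genotypes separated all arrays (two-sided exact permutation p = 0.00794, adjusted 0.0159 over 20 pairs of chains). These pairs were chosen after the values were seen, and the adjustment does not cover that choice. A ratio taken within an array shows unequal change and does not depend on how arrays were scaled to each other by a constant.

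The sequence upstream of this pair, and of Col11a1, the fibrillar collagen gene with the deepest fall, is shown because these genes fell and their start regions could be read outside annotated genes. Col6a3 met the same terms, with no motif match in its stretch, and is not printed because its call ended in most alternatives. The listed starts of Col4a5 and Col4a6 lie 1343 bases apart on opposite strands of chromosome X. Each line gives 150 bases that end at the gene's outer edge, 5′ to 3′ on the gene's strand, from RefSeq on GRCm38.p6, with matches to 4 motifs in capitals. The motifs, searched on both strands, were the GC box GGGCGG bound by Sp1-like factors, the CCAAT box CCAAT, the TATA box TATAAA, and AGAACA, the half-site that progesterone and glucocorticoid receptors bind.
Col4a5 (chrX:141475220-141475369, plus strand): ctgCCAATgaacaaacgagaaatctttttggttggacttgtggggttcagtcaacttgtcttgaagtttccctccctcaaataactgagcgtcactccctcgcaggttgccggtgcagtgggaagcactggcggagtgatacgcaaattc
Col4a6 (chrX:141474096-141474245, minus strand): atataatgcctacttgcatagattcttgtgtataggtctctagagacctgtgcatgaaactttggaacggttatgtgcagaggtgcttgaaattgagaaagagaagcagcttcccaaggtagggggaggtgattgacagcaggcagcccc
Col11a1 (chr3:114030329-114030478, plus strand): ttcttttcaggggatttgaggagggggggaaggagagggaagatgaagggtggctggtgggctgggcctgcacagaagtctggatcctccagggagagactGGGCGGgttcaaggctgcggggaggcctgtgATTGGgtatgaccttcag

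The stretch of Col4a5 holds a CCAAT box near its outer end, that of Col11a1 holds a GC box and, in reverse, a CCAAT box, and that of Col4a6 holds none of the 4. In the 250 bases before each listed start, 35 of the 44 collagens had a RefSeq window, as did 7 of the 9 that fell (Col12a1 and Col5a2 were not in the table used here). Among those 7, a GC box was found in 4 and a CCAAT box in 4, and the TATA box and the receptor half-site in 0. The 4 with a GC box were Col11a1, Col4a2, Col4a5 and Col4a6, so the windows of Col4a5 and Col4a6 hold a GC box that the stretches printed above do not. Of all 32851 windows of that length, 32.7% held a GC box, 33.9% a CCAAT box, 12.4% a TATA box and 16.1% the half-site. Over the 38 collagen windows a GC box was found in 22 (57.9%), a share like that of the genes that fell, and a CCAAT box in 13 (34.2%). The half-site was found in 2, upstream of Col9a1 and Col20a1, neither of which was called. These matches describe letters in a short window and say nothing of where a factor binds.

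Col4a1, the alpha 1 chain gene, read 7.49, 7.43, 7.52, 7.56 and 7.62 on the PR+/- arrays and 7.04, 7.18, 7.22, 6.92 and 6.95 on the PRKO arrays. Its partner Col4a2 read 7.44, 7.27, 7.43, 7.40 and 7.47 in PR+/- and 6.84, 7.13, 6.98, 6.86 and 7.17 in PRKO. All PRKO values of both genes lay below all PR+/- values, with the nearest PRKO array of Col4a2, replicate 5, 0.10 below. Col4a1 fell by 0.47 ± 0.079 (SE, limma adjusted p = 0.00301, 1.38-fold lower) and Col4a2 by 0.41 ± 0.083 (adjusted p = 0.0109, 1.33-fold lower). These genes share a start region on chromosome 8, with listed starts 21 bases apart on opposite strands. The change in their ratio, -0.06, did not pass (exact permutation p = 0.603). The call of Col4a1 ended with the arrays' interquartile range as a covariate (log2 -0.45, adjusted p = 0.0593), and that of Col4a2 without PR+/- replicate 4 and PRKO replicate 3, the arrays with ovarian signal (-0.40, adjusted p = 0.0595).

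In the third pair only Col4a4 was called. Col4a4, the alpha 4 chain gene, read 6.37, 6.31, 6.26, 6.25 and 6.42 in PR+/- and 5.84, 5.97, 5.85, 5.91 and 5.85 in PRKO, with no overlap. It fell by 0.44 ± 0.068 (SE, limma adjusted p = 0.00142, 1.36-fold lower). Col4a3, its neighbour and the alpha 3 chain gene, read 5.20, 5.17, 5.00, 5.11 and 5.38 in PR+/- and 5.32, 5.13, 5.23, 5.07 and 5.15 in PRKO, so that the groups overlapped throughout. The log2 difference of Col4a3 was 0.01 with a 95% interval of -0.17 to 0.19. Within arrays the ratio of Col4a3 to Col4a4 moved by 0.45 and that of Col4a3 to Col4a5 by 0.55, and both separated the genotypes (exact permutation p = 0.00794, adjusted 0.0159 over the 20 pairs). The ratio of Col4a4 to Col4a5 moved by 0.10 (exact permutation p = 0.206).

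Types XV and XVIII lie in or beside basement membranes and carry an anti-angiogenic fragment at one end. Col15a1 read 7.46, 7.13, 7.25, 7.18 and 7.32 in PR+/- and 7.01, 7.09, 7.12, 6.90 and 6.82 in PRKO. The groups did not overlap, by 0.01, yet the gene was not called (log2 difference -0.28 ± 0.086 SE, limma adjusted p = 0.0810). Col18a1 had a difference of 0.03 with a 95% interval of -0.14 to 0.19. For the class as a whole, 5 of 8 fell and the median log2 difference was -0.42, against 0.03 over all genes tested. Values did not overlap in 6 of the 8, PRKO being lower in each, where 5.06% of all genes did so. As the type IV genes all lie in pairs, the 5 falls leave 2 pairs in which both members fell, whichever gene is not called. By limma 0 of the 8 rose, and 6 were lower and 0 higher at an unadjusted p under 0.05. Of all genes tested, 3.87% fell and 1.09% rose, and 11.1% were lower and 10.1% higher at that p.

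**Figure D2:**
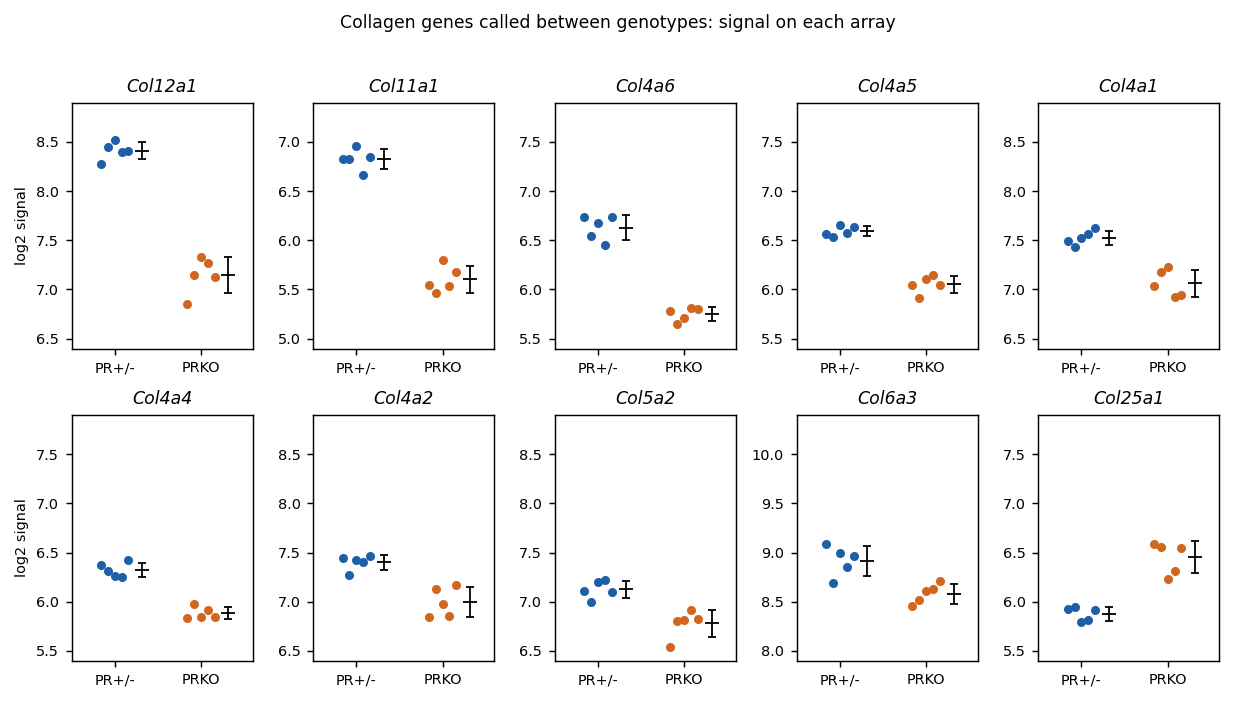
Log2 signal (vertical axis, each panel spanning 2.5 units) of the 10 called collagen genes on the 5 PR+/- and 5 PRKO arrays, with a point for each array and the mean with its SD beside the points. PRKO arrays lie wholly below PR+/- arrays in 8 panels and wholly above in that of Col25a1, and in that of Col6a3 the highest PRKO array, at 8.72, lies above the lowest PR+/- array, at 8.69.

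Among fibrillar collagens, Col11a1 and Col5a2 fell, and the other 9 were not called. Col11a1 codes for the alpha 1 chain of type XI, a minor chain that sits inside fibrils and limits their width. It read 6.83, 6.83, 6.96, 6.67 and 6.84 in PR+/- and 5.55, 5.46, 5.80, 5.54 and 5.67 in PRKO. The groups were 0.87 apart at the nearest. The log2 difference was -1.22 ± 0.083 (SE, n = 5 against 5, limma adjusted p = 1.00e-06).

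The chains that join alpha 1(XI) in type XI were not called. Col11a2 had a log2 difference of 0.11 (95% interval -0.09 to 0.30) and Col2a1, whose product also serves as the other chain of type XI, one of 0.10 (-0.08 to 0.28). The within-array ratio of Col11a1 to Col11a2 went from 1.17 ± 0.14 in PR+/- to -0.16 ± 0.11 in PRKO arrays (SD over 5 arrays per genotype), and that to Col2a1 from 1.13 ± 0.17 to -0.19 ± 0.12. Both shifts, of -1.33, separated all arrays (exact permutation p = 0.00794, adjusted 0.0159), and they largely restate the fall of Col11a1. Col11a2 and Col2a1 were dim, with mean signals of 5.71 and 5.74. Whether such probe sets could show a fall was not tested. Alpha 1(XI) also assembles with alpha 2(V) outside cartilage, and the ratio of Col11a1 to Col5a2 moved by -0.88 with the same p.

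Type V collagen starts fibrils and is built mainly of alpha 1 and alpha 2 chains. Col5a2, the alpha 2 chain gene, read 7.11, 7.001, 7.20, 7.22 and 7.10 in PR+/- and 6.54, 6.80, 6.81, 6.92 and 6.83 in PRKO, PRKO replicate 1 being the lowest by 0.26. It fell by 0.35 ± 0.083 (SE, limma adjusted p = 0.0260, 1.27-fold lower). Its call ended in 7 of 20 alternatives, at an adjusted p of 0.0621, 0.0698, 0.0692 and 0.0539 without PR+/- replicates 1, 3, 4 and 5 and of 0.180 once array spread (the interquartile range) was a covariate, where the log2 difference was -0.36. Col5a1 and Col5a3 had differences of 0.08 (95% interval -0.09 to 0.24) and 0.03 (-0.16 to 0.22). The ratio of Col5a1 to Col5a2 was -0.09 ± 0.054 in PR+/- and 0.34 ± 0.21 in PRKO arrays (SD over 5 arrays per genotype), with no overlap (exact permutation p = 0.00794).

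The main fibril-forming chains had smaller differences. Col1a1, the alpha 1 chain of type I, spanned 11.51 to 11.82 in PR+/- (median 11.73) and 11.53 to 11.66 in PRKO (median 11.57). All PRKO values lay within the PR+/- range, and the log2 difference was -0.11 with a 95% interval of -0.27 to 0.05. Col1a2, the alpha 2 chain, spanned 11.05 to 11.25 and 10.85 to 11.06, with 4 of 5 PRKO arrays below all PR+/- arrays (log2 difference -0.19 ± 0.071 SE, limma adjusted p = 0.136).

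Col3a1, the type III chain of pliable tissues, read 10.55, 10.28, 10.56, 10.48 and 10.46 in PR+/- and 10.01, 10.14, 10.28, 10.26 and 10.24 in PRKO. It overlapped by a single pair of arrays, PR+/- replicate 2 and PRKO replicate 3, and was not called (-0.28 ± 0.081 SE, limma adjusted p = 0.0645). It was called in 3 alternatives, with arrays centred on their medians, with the dimmest 50% of genes left out and with a variance trend (adjusted p 0.0346, 0.0253 and 0.0181). Col3a1 lies next to Col5a2 on chromosome 1. The developmental fibrillar types XXIV and XXVII were not called, with Col24a1 at a log2 difference of 0.26 ± 0.082 (SE, adjusted p = 0.0838) and Col27a1 at 0.16 ± 0.097. In the class, 2 of 11 fell and 0 rose by limma (4 were lower and 1 higher at an unadjusted p under 0.05). Of all genes tested, 3.87% fell and 1.09% rose, and 11.1% were lower and 10.1% higher at that p. The median log2 difference of the class was 0.03, equal to that of all genes tested.

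Fibril-associated collagens showed 1 large fall. Col12a1 codes for type XII, a long collagen with fibronectin-like repeats that bridges fibrils in tissues under tension. It read 8.28, 8.45, 8.52, 8.40 and 8.41 in PR+/- and 6.85, 7.15, 7.33, 7.27 and 7.13 in PRKO. The groups were 0.95 apart at the nearest, and PRKO replicate 1 was the lowest. The log2 difference was -1.26 ± 0.092 (SE, n = 5 against 5, limma adjusted p = 1.53e-06).

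Col14a1, the nearest relative of type XII, was not called. It spanned 6.55 to 6.96 in PR+/- and 6.82 to 7.14 in PRKO, and its log2 difference was 0.18 with a 95% interval of -0.02 to 0.39. Col16a1, a collagen of fibrillin-rich and fibrillar matrix, differed by -0.16 ± 0.067 (SE, limma adjusted p = 0.199), with 4 of 5 PRKO arrays below all PR+/- arrays. The type IX chains of cartilage-like fibrils, Col9a1, Col9a2 and Col9a3, had differences of 0.03, 0.27 and 0.19 (adjusted p 0.896, 0.0995 and 0.256). Col19a1, at 0.29 ± 0.092 (adjusted p = 0.0903), had a mean signal in the range of the olfactory genes, and Col20a1 and Col22a1 differed by 0.16 and 0.13. Of the 9 in the class, 1 fell and 0 rose by limma (2 were lower and 2 higher at an unadjusted p under 0.05). The shares over all genes tested were 3.87% and 1.09%, and 11.1% and 10.1% at that p. The median log2 difference of the class was 0.16.

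**Figure D3:**
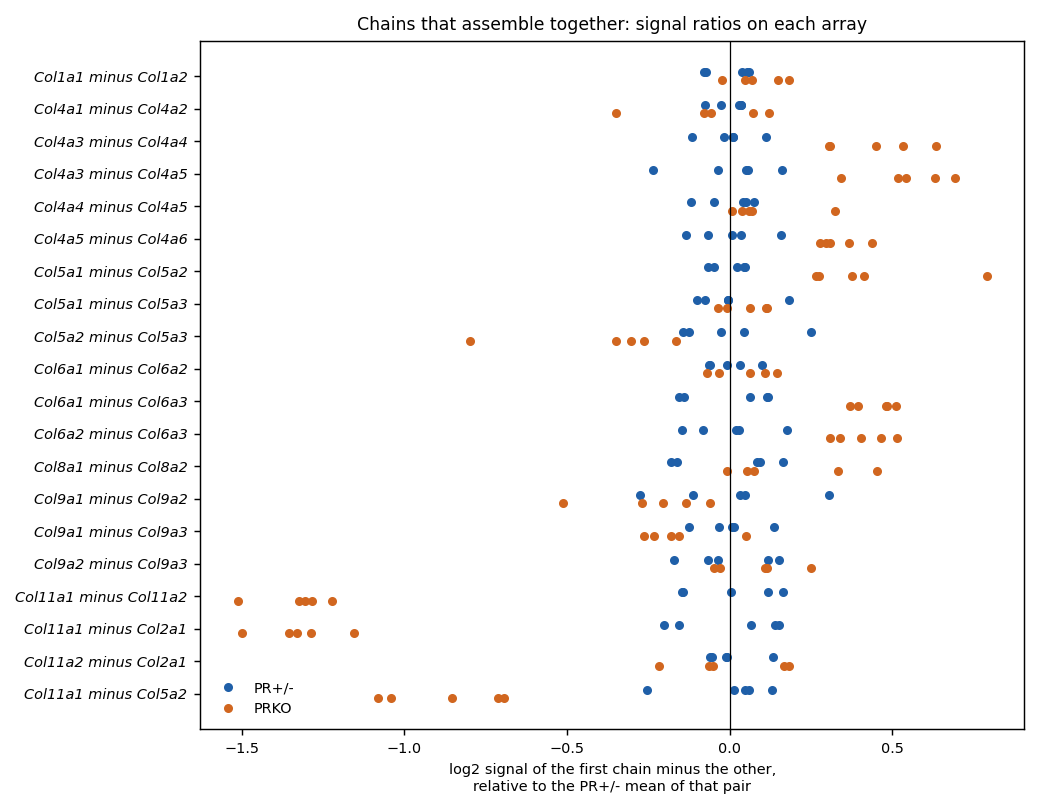
Within-array log2 ratio of 2 collagen chains that can assemble together, shown relative to the PR+/- mean of the pair (horizontal axis) for 20 pairs, with a point for each PR+/- and each PRKO array. The genotypes separate without overlap in 10 pairs, all of which hold Col4a3, Col4a6, Col5a2, Col6a3 or Col11a1, and overlap in the other 10. The pairs were chosen after the values were seen. Except for Col4a5 with Col4a6 and Col11a1 with Col5a2, each separating pair sets a called gene against one not called, so separation there largely restates the calls.

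Type VI collagen forms beaded filaments around cells, from alpha 1, alpha 2 and, in most tissues, alpha 3 chains. Col6a3 read 9.09, 8.69, 8.99, 8.85 and 8.96 in PR+/- and 8.45, 8.51, 8.61, 8.63 and 8.72 in PRKO, the lowest PR+/- array being replicate 2. It fell by 0.33 ± 0.086 (SE, limma adjusted p = 0.0396, 1.26-fold lower). This call ended in 13 of 20 alternatives, at an adjusted p of 0.0535 to 0.123, while the log2 difference stayed between -0.40 and -0.28 in all 20 and was -0.40 under the covariate. They included quantile and cyclic loess normalization (0.0988 and 0.104), the replicate block (0.0535), and the loss of PR+/- replicate 1, 3, 4 or 5 (0.110, 0.0948, 0.0617 and 0.0882) or PRKO replicate 1, 2 or 3 (0.0721, 0.0643 and 0.0686).

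Col6a1 and Col6a2, which lie side by side on chromosome 10, were not called. Col6a1 spanned 8.69 to 9.04 in PR+/- and 8.84 to 9.13 in PRKO (log2 difference 0.11, 95% interval -0.07 to 0.30), and Col6a2 8.04 to 8.35 and 8.25 to 8.37 (0.07, -0.10 to 0.24). Relative to Col6a3 within the same arrays, however, both were higher in every PRKO array than in any PR+/- array. The ratio of Col6a1 to Col6a3 was -0.07 ± 0.14 in PR+/- and 0.38 ± 0.062 in PRKO, and that of Col6a2 to Col6a3 -0.68 ± 0.12 and -0.27 ± 0.086 (SD, n = 5 each, exact permutation p = 0.00794, adjusted 0.0159). The ratio of Col6a1 to Col6a2 moved by 0.04 (exact permutation p = 0.421). The chains that can take the place of alpha 3, Col6a4, Col6a5 and Col6a6, neighbours on chromosome 9, had differences of 0.08, 0.14 and 0.13 and were not called. The dimmer probe set of Col6a5 differed by -0.13 and that of Col6a6 by 0.04, neither called.

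Membrane-spanning collagens act as receptors or adhesion molecules and are shed from the cell surface. Col25a1, which is known from neurons and from the innervation of developing muscle, read 5.93, 5.95, 5.79, 5.81 and 5.91 in PR+/- and 6.59, 6.56, 6.24, 6.32 and 6.55 in PRKO. All PRKO arrays lay above all PR+/- arrays, by 0.29 at the nearest, and PRKO replicates 3 and 4 were lower than the other 3. It rose by 0.57 ± 0.085 (SE, limma adjusted p = 9.80e-04, 1.49-fold higher). The rise was called in all 20 alternatives, at a log2 difference of 0.49 to 0.63. The other membrane types, Col13a1, Col17a1 and Col23a1, differed by 0.11, 0.21 and 0.09 and were not called.

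The last collagens were not called either. Col7a1, which anchors epithelial basement membrane to the stroma, differed by 0.04 (95% interval -0.17 to 0.24). The network-forming Col8a1, Col8a2 and Col10a1 differed by 0.12, -0.06 and 0.24, and Col26a1 and Col28a1 by 0.19 and 0.24. Col10a1 had the widest spread between pools of any collagen, with an SD of 0.25 in PR+/- and 0.35 in PRKO. Among the 16 collagens outside the other 3 classes, 1 fell, 1 rose and the median log2 difference was 0.12. Each call is 6.25% of these 16, where 3.87% of all genes tested fell and 1.09% rose.

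**Figure D4:**
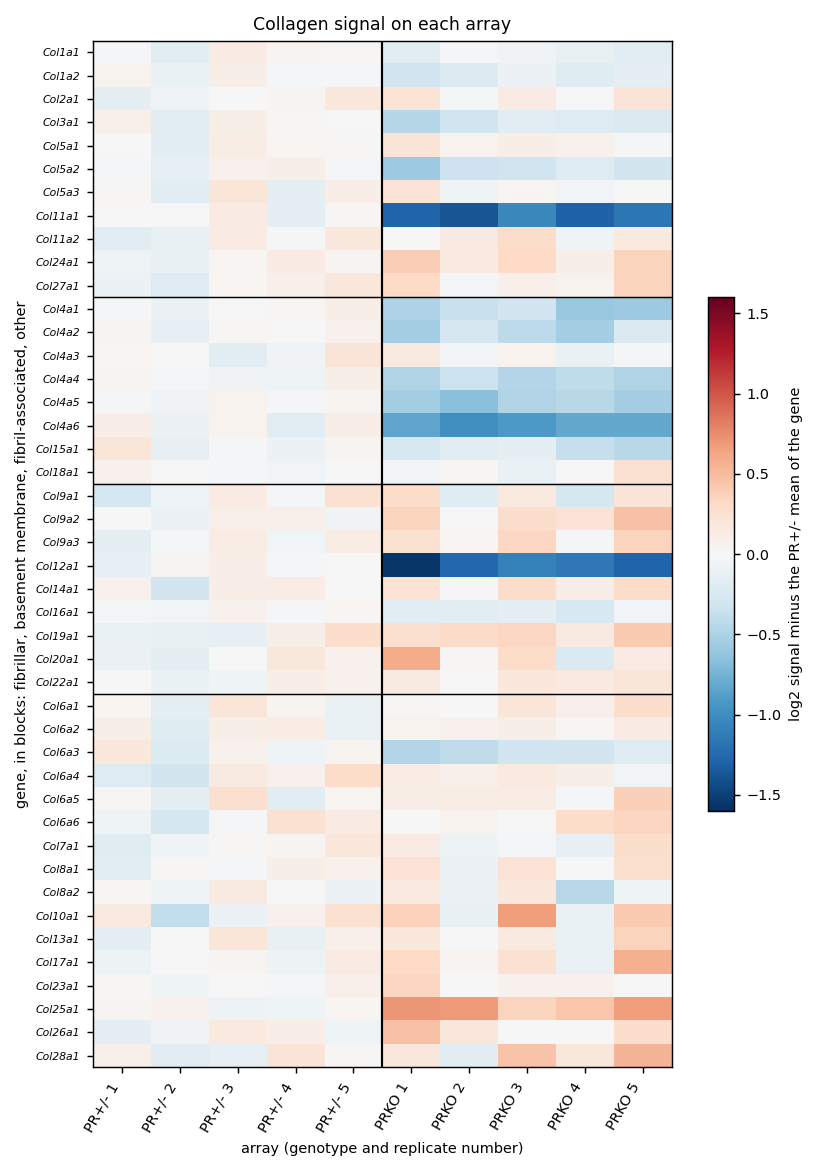
Log2 signal of each collagen gene minus its PR+/- mean (colour, blue lower and red higher) on the 10 arrays (columns, PR+/- left and PRKO right), with genes in rows by class. The blue cells of PRKO arrays are gathered in Col11a1, Col12a1 and the type IV genes except Col4a3. Among the 19 collagens with a mean signal under 6, 14, 2, 11, 3 and 15 lie over 0.15 above the PR+/- mean on PRKO arrays 1 to 5. On PR+/- arrays 1 to 5 the counts are 1, 0, 3, 2 and 8.

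Across all members, the difference varied with the signal. Of the 34 collagens that were not called, 28 had a difference above 0 and their median was 0.11. Among all genes tested, 85.3% of those with a mean log2 signal under 4 had a difference above 0, and the median difference was 0.12 there, 0.08 between 4 and 5, -0.01 between 5 and 6, -0.05 between 6 and 7, and -0.04 both between 7 and 8 and at 8 and over. The 19 collagens between 4 and 6 all had differences above 0, with medians of 0.24 for 6 genes and 0.11 for 13. Of the 25 brighter collagens 10 did, in bins whose medians were -0.06, -0.34 and -0.15. The narrower interquartile range of the PRKO arrays, given above, moves with this slope, and its part was not tested. With that range as a covariate, 14 of the 44 collagens were above 0 in place of 29, and their median went from 0.08 to -0.05. The covariate itself differed between genotypes.

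**Figure D5:**
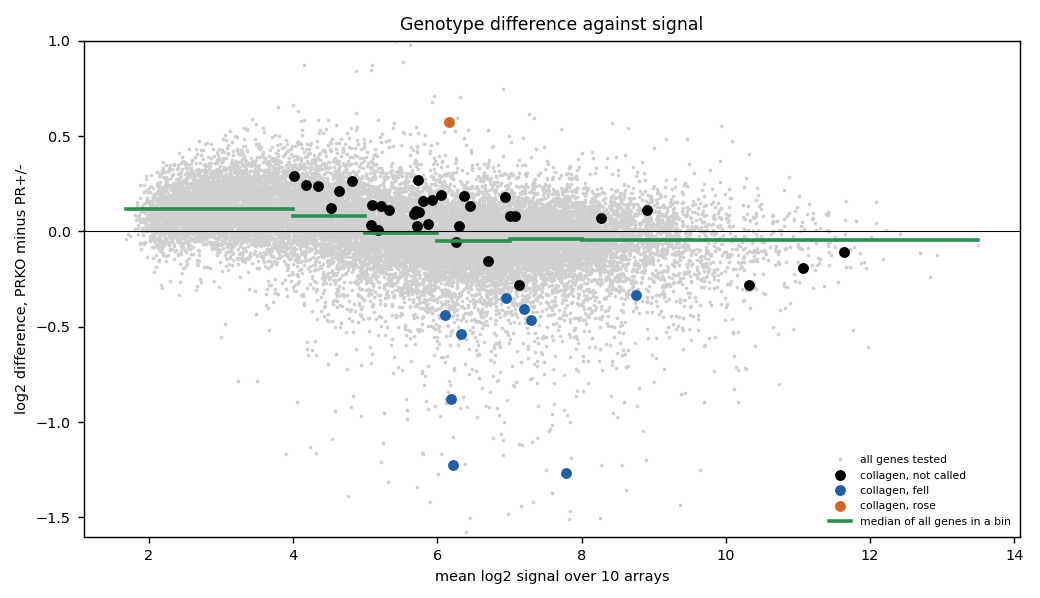
Log2 difference between genotypes (vertical axis) against mean log2 signal over 10 arrays (horizontal axis) for all genes tested (grey), with collagens as larger points coloured by call and green lines for the median of all genes in each signal bin. Dim genes sit slightly above 0 and brighter ones slightly below, the called collagens stand off the green lines, and 16 genes lie outside the vertical axis.

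The median SD of a collagen was 0.12 in PR+/- and 0.14 in PRKO, and 26 of 44 (59.1%) had the larger SD in PRKO, against 74.7% of all genes tested. Values of the 2 genotypes did not overlap for 10 of the 44 collagens, 9 with PRKO lower and 1 with PRKO higher. Over all genes tested 5.06% did so with PRKO lower and 2.15% with PRKO higher.

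Genes that build collagen were lower in part. For scale, 3.87% of all genes tested fell and 1.09% rose. The median log2 difference of all genes was -0.05 at a mean signal of 6 to 7 and -0.04 above that. At an unadjusted limma p under 0.05, 11.1% were lower and 10.1% higher. Newly made chains are hydroxylated, folded and glycosylated in the endoplasmic reticulum. The list for these steps also holds genes of collagen export and of transcription, none of them called. Of its 21 genes measured, 3 fell, 18 were not called and 0 rose by limma (9 were lower and 3 higher at an unadjusted p under 0.05). The median log2 difference of the list was -0.15. P4ha2, a catalytic subunit of prolyl 4-hydroxylase, fell by 0.56 ± 0.12 (SE, limma adjusted p = 0.0190), Plod1, which hydroxylates lysines, by 0.44 ± 0.10 (0.0257), and Ppib, a folding enzyme of the procollagen complex, by 0.30 ± 0.082 (0.0498). Serpinh1, the collagen chaperone HSP47, differed by -0.22 (adjusted p = 0.343). Of 11 genes that trim and crosslink collagen outside the cell, 3 fell and 0 rose by limma, with 5 lower and 0 higher at an unadjusted p under 0.05 (median -0.15). These were the crosslinking oxidases Lox (-0.49 ± 0.12) and Loxl1 (-0.47 ± 0.095) and Pcolce, which speeds removal of the type I propeptide (-0.44 ± 0.097), with adjusted p of 0.0276, 0.00982 and 0.0170. With the arrays' interquartile range as a covariate, none of these synthesis, trimming and crosslinking genes was called.

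The next list held proteins that decorate fibrils. Of 15 measured, 5 fell and 0 rose by limma, with 6 lower and 2 higher at an unadjusted p under 0.05 (median -0.14). They were Postn, the matricellular protein periostin (log2 -1.43 ± 0.12), the small leucine-rich proteoglycan genes Bgn (-1.05 ± 0.096), Aspn (-1.02 ± 0.17) and Prelp (-0.56 ± 0.089), and Sparc, a collagen-binding glycoprotein (-0.37 ± 0.081), at an adjusted p of at most 0.0153. Dcn and Lum, proteoglycans of the same family, differed by -0.16 and 0.37 and were not called (adjusted p 0.240 and 0.0887). Of 9 collagen receptors, 2 fell, the alpha 1 integrin gene Itga1 (-0.76 ± 0.15, adjusted p = 0.0102), whose product binds type IV collagen, and its partner Itgb1 (-0.29 ± 0.071, adjusted p = 0.0287), and the median was -0.10. The discoidin receptors Ddr1 and Ddr2 differed by -0.22 and -0.10 and were not called. At an unadjusted limma p under 0.05, 4 of the 9 receptors were lower and 1 higher. Where 3.87% of all genes tested fell, 13 genes of these 4 lists did, out of 21, 11, 15 and 9 measured. With the interquartile range as a covariate 3 did, Aspn, Bgn and Postn. Without PR+/- replicate 1 the count was 7, as it was without the 2 arrays with ovarian signal.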

How the data were processed

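The authors deposited 1 table that holds log2 signals of 35557 probe sets for the 10 arrays. The log2 scale was inferred from the values (1.09 to 13.6), since no label states it. Partek is the tool named in the submitters' processing notes. No version, background correction or normalization is stated in the labels. Of the rows, 21789 had 1 gene symbol in the platform's annotation, 1621 several and 12147 none. The brightest probe set stood for each of 19938 genes, and all 44 collagen IDs matched RefSeq. Dim genes were kept, and the number of arrays limits precision (median 95% interval ± 0.20).

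The test was limma's (version 3.58.1, under R 4.3.3, with 8 residual and 6.08 prior degrees of freedom), and p-values had Benjamini-Hochberg adjustment over all genes. The lists were described by counts and medians. On simulated data with 19938 genes the fit called 18% of the genes with a 1.25-fold change and 82% of those with a 1.5-fold change. The simulation held independent genes and gave 151 calls, against 988 in the real data. Its adjusted threshold was therefore stricter, and these rates are not those of the real data. Chain ratios used two-sided exact permutation tests over 252 arrangements, adjusted over 20 pairs chosen after the values were seen.

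Alternatives changed the normalization, the probe set rule, the filter on dim genes, the moderation, a block or covariate, the threshold and the arrays. The naming rule took collagens that were called or had an unadjusted p under 0.05, the 3 of each class with the highest mean, chain partners of called collagens, and up to 4 called members of each other list by smallest p. The remaining collagens, Sparc, Dcn, Lum, Serpinh1, Ddr1, Ddr2 and the genes of the identity and marker checks lie outside it and were named after their values were seen. The collagens, lists and alternatives were chosen with earlier results of these data known. Pools are labelled as biological replicates, and limma p-values set the genotype difference against the spread between pools, moderated over all genes.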

Additional observations from a re-analysis of the deposited data

Results flagged for a closer look

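Of 88 groups of 5 values (44 collagens in both genotypes), 3 held an array far from the other 4 by Dixon's criterion, which chance alone meets in about 5% of groups. Col14a1 read 6.55 in PR+/- replicate 2, against 6.85 to 6.96 on the other PR+/- arrays. Col22a1 read 5.15 in PRKO replicate 2, against 5.30 to 5.35, and Col23a1 read 5.97 in PRKO replicate 1, against 5.62 to 5.70. None of the 3 genes was called.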

How the results depend on the processing

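Across 20 alternative fits, Col11a1, Col12a1, Col4a4, Col4a5 and Col4a6 fell and Col25a1 rose in every one, Col4a1 and Col4a2 fell in 19 each, Col5a2 in 13 and Col6a3 in 7. The count of collagens that fell was 6 with the interquartile range as a covariate, 6 without PR+/- replicate 4 and PRKO replicate 3, and 11 with the dimmest 50% of genes left out. It was 7 to 9 with single arrays left out, and that of collagens that rose 1 to 2. There were 2 rises with the dimmest 50% of genes left out, and 4 at an adjusted p under 0.1. Fibrillar falls were 1 to 2 with single arrays left out. They were 1 with the interquartile range as a covariate, without PR+/- replicate 4 and PRKO replicate 3, without PRKO replicates 1 and 5, and at an adjusted p under 0.01. Falls among the other collagens were 0 to 1 with single arrays left out and 0 in those 4 settings, with quantile or cyclic loess normalization, and with the replicate block, that single fall being Col6a3. For synthesis, processing, fibril-binding and receptor genes, falls numbered 7 to 14 with single arrays left out, 3 with the covariate, 7 without PR+/- replicate 4 and PRKO replicate 3, and 5 at an adjusted p under 0.01. A stricter threshold calls fewer genes by construction; the cause of the other changes was not tested. Calls were gained by Col3a1 in 3 settings (given with that gene), Col15a1 with the dimmest 50% left out (adjusted p = 0.0348 by limma), Col9a2 there and without PRKO replicate 2 (0.0472 and 0.0272), Col19a1 without PR+/- replicate 5 (0.0342) and Col24a1 without PRKO replicate 4 (0.0483).

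Sign changes were seen in 43 cases over 16 collagens, none of them called in either setting. With the covariate, Col10a1, Col13a1, Col17a1, Col18a1 and Col27a1 differed by -0.077, -0.083, -0.064, -0.045 and -0.048. Under it Col28a1, Col2a1, Col4a3, Col5a3 and Col6a1 differed by -0.053, -0.051, -0.037, -0.021 and -0.0023, and Col6a6, Col7a1, Col8a1, Col9a1 and Col9a3 differed by -0.0077, -0.179, -0.061, -0.242 and -0.0082. Col4a3 differed by -0.025 with quantile normalization, and Col4a3 and Col9a1 differed by -0.024 and -0.0023 with cyclic loess. With arrays centred on their medians, Col18a1, Col4a3 and Col5a3 differed by -0.0032, -0.025 and -0.0027. Without PR+/- replicate 4 and PRKO replicate 3, Col4a3, Col5a3 and Col9a1 differed by -0.022, -0.011 and -0.0041. Without PRKO replicates 1 and 5, Col18a1, Col4a3, Col5a3, Col7a1 and Col9a1 differed by -0.023, -0.029, -0.025, -0.076 and -0.11. With single arrays left out, differences ran from -0.027 to 0.063 for Col18a1, -0.037 to 0.059 for Col4a3, -0.018 to 0.078 for Col5a3, -0.023 to 0.083 for Col7a1, -0.11 to 0.040 for Col8a2 and -0.035 to 0.114 for Col9a1.

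Replicate numbers were not taken to pair the pools. Deviations of same-numbered arrays correlated at 0.10, 0.12, -0.01, 0.13 and 0.16, and 2 of 5 numbers had their own as best match. With the replicate block, 1042 genes were called in place of 988, and 8 collagens fell. No detection values were used here, and only Col19a1 had a mean signal under the 95th percentile of the olfactory genes.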
